A study of Triticum aestivum with 4 samples.

Results

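The comparison set spring against pre-spring in the crown of Shimai 22, a semi-winter wheat (Triticum aestivum) cultivar grown in the field. The crown is the base of the shoot that carries the shoot apical meristem. The spring side held the green-up library (the double ridge stage) and the jointing library, and the pre-spring side held the three-leaf library and the winter dormancy library. All 4 libraries came from untreated plants of 1 cultivar, and each was a single small RNA library made from equal parts of the total RNA of the biological replicates of its stage. The compared members were all of the listed miRNAs, 282 known miRNAs and 66 named wheat_miR by the study, so none of the series was left out. A miRNA was called separated when both values of one side exceeded both values of the other. The stages of a side are different stages of growth and not replicates, so a separated miRNA describes an ordering of 4 pooled libraries. No test across samples was possible, and no p-value is given.

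miRNAs are short RNAs that guide an Argonaute protein to transcripts with a matching sequence, which are then cleaved or less translated. In plants, miR156 holds back the SPL factors of the adult phase and miR172 holds back the AP2-like factors that delay flowering. In grasses, miR5200 targets transcripts of the florigen gene FT, which is VRN3 in wheat. The meristem of the crown perceives winter cold and produces leaves before it turns to forming the ear, so these regulators are of interest on either side of winter.

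The sequences of miRNAs on which the comparison turns are printed here as listed in the deposited table, 5′ to 3′, with bases 2 to 8 (the seed) in capitals and the rest in lower case. The first set shows miRNAs with both spring values below both pre-spring values. miR171a-3p and miR171b share 1 seed, and so do miR169a-5p and miR169g.
miR168a-5p: uCGCUUGGugcagaucgggac
miR168-3p: cCCGCCUUgcaccaagugaau
miR156a-5p: uGACAGAAgagagugagcaca
miR5200a-3p: uGUAGAUAcucccuaaggcuu
miR5200-5p: aAGCCUUAgugaauaucuaca
miR396b-5p: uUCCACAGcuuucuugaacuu
miR171a-3p: uGAUUGAGccgcgccaauauc
miR171b: uGAUUGAGccgugccaauauc
miR169a-5p: cAGCCAAGgaugacuugccga
miR169g: uAGCCAAGgaugacuugccugu
miR398a-3p: uGUGUUCUcaggucgcccccg
miR9773: uUUGUUUUuauguuauuuugugaa
miR3950: uUUUCGGCaucauauuaucau
The second set shows miRNAs with both spring values above both pre-spring values, and no 2 of them share a seed.
miR319b-3p: uUGGACUGaagggugcucccu
miR319-5p: aGCUGCCGauucauucauuca
miR172a-5p: gCAGCACCaccaagauucaca
miR172e-3p: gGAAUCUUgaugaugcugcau
miR160a-5p: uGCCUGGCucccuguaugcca
miR396c-3p: gGUCAAGAaagcugugggaag
miR394a: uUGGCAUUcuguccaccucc
miR1130: uCUGUAAAcuaauauaagagc
miR6249a: cCUCCGGUggagaguagccgg
The third set shows 2 entries that differ at 1 base and were separated in opposite directions as deposited, while the sides of wheat_miR128 overlapped after scaling.
wheat_miR127: uUUGAAGAcuaguuuauuaca
wheat_miR128: uCUGAAGAcuaguuuauuaca

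Of all listed miRNAs, 132 (37.9%) had both spring values lower and 39 (11.2%) had both spring values higher, while the sides overlapped for 177. The values were reads per 1000000 mapped reads (RPM), as deposited. In crown RNA, fewer cells that make a miRNA and less of it per cell cannot be told apart, and with 1 library per stage neither can a stage and its library. After median-ratio scaling, which sets the typical miRNA to the same level in all libraries, 87 (25%) were lower and 76 (21.8%) were higher. The median log2 ratio of spring mean to pre-spring mean over all listed miRNAs was -0.54 as deposited and 0.16 after scaling. The scaling moved the log2 ratio of the miRNAs above 0 in all libraries upward by a median of 0.72, so each ratio below is read against that shift. All 39 higher miRNAs stayed higher and 87 of the 132 lower miRNAs stayed lower under scaling. Both spring scaling factors were below both pre-spring ones, so scaling could not undo a higher call or make a new lower one. That all higher miRNAs stayed higher is thus no check of their calls. Of the other lower miRNAs, 43 overlapped and 2 (miR1137b-5p and miR5181c-5p) became higher, while 35 overlapping miRNAs became higher. Without the jointing library 102 miRNAs were higher and 148 lower in green-up as deposited, and without the green-up library 76 were higher and 185 lower in jointing. Counts with a library left out cannot fall, since the rule is then easier to meet.

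The depth behind these values was 20534250 to 21888000 mapped reads per library, read from the step between values. The listed miRNAs summed to 107282 RPM in green-up crowns and 68949.9 RPM in jointing crowns, against 142826 RPM in three-leaf crowns and 135687 RPM in dormant crowns. The scaling factors were 0.943 for green-up and 0.632 for jointing, against 1.31 for the three-leaf stage and 1.28 for dormancy. The spring libraries were less alike than the pre-spring ones. Among the 200 miRNAs above 0 in all libraries, the median absolute log2 difference was 0.84 between jointing and green-up, against 0.34 between dormancy and the three-leaf stage. After scaling these medians were 0.57 within spring and 0.35 before it.

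The lower miRNAs held much of the listed RNA before spring and less of it in spring. The 132 lower miRNAs took 43.2% of the listed RPM at green-up and 48.7% at jointing, against 77.1% in three-leaf crowns and 75.8% in dormant crowns. The 39 higher miRNAs took 4.90% in green-up crowns and 14.2% in jointing crowns, against 1.58% in three-leaf crowns and 1.07% in dormant crowns. Within a library these shares do not depend on its scaling, but the sets were those called as deposited, and scaling changes their members. The directions of the members were what chose the sets, so the shares are a description. miR159a.1, which was not separated as deposited and was higher after scaling, weighs on them, with 45173 RPM at green-up.

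**Figure D1:**
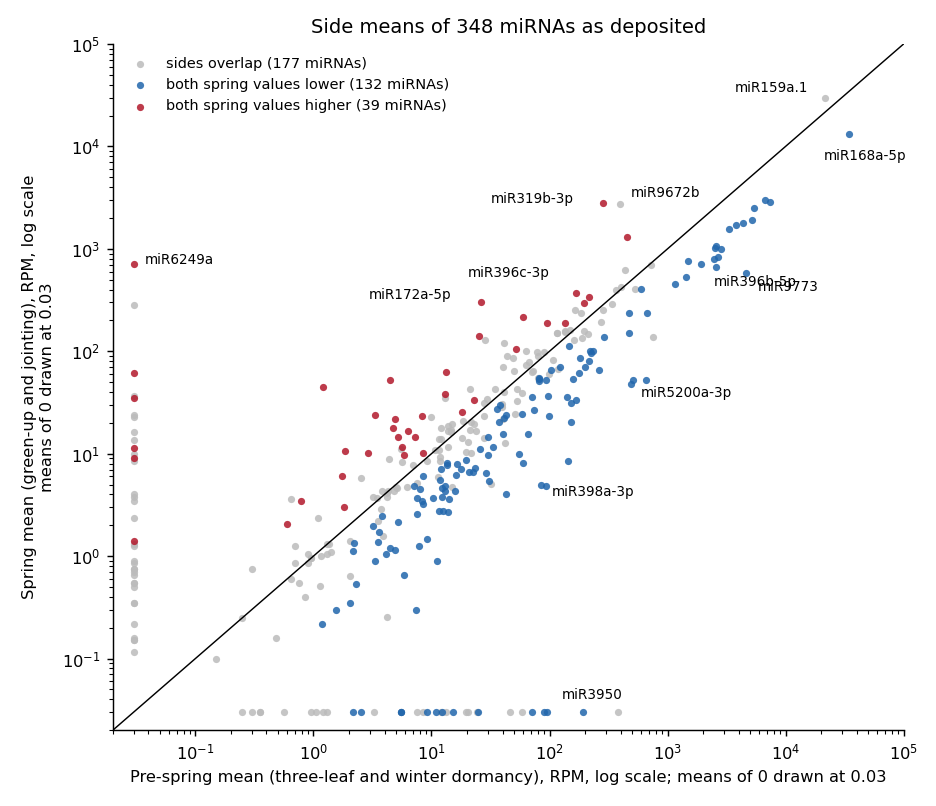
Mean of the spring libraries (vertical axis, RPM, log scale) against the mean of the pre-spring libraries (horizontal axis, RPM, log scale) for all listed miRNAs as deposited, with 1 point per miRNA and the line of equal means. The 132 miRNAs with both spring values lower lie below the line, the 39 with both spring values higher lie above it, and side means of 0 are drawn at the low end of each axis.

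Separated miRNAs were most frequent among the abundant ones. Over all listed miRNAs 37.9% were lower and 11.2% higher as deposited, and 25% and 21.8% after scaling. Among the 39 miRNAs above 500 RPM in their highest library, 26 (66.7%) were lower and 3 (7.69%) were higher as deposited. After scaling 21 (53.8%) of them were lower and 6 (15.4%) were higher. Among the 140 miRNAs between 5 and 50 RPM, 54 (38.6%) were lower and 19 (13.6%) were higher as deposited. After scaling 32 (22.9%) of these were lower and 33 (23.6%) were higher. The side means differed more than 2-fold for 107 of the 132 lower and 31 of the 39 higher miRNAs, and more than 4-fold for 43 lower and 16 higher ones. In 93 of the lower and 22 of the higher miRNAs, the difference between the sides was larger on the log2 scale than the difference between the libraries within either side. In 93 of the lower miRNAs the jointing value as deposited was also below the green-up value. Of the lower miRNAs, 51 had a lower value as deposited at every step from the three-leaf stage to jointing. The scaling factor of jointing was below that of green-up, so these orders depend on the scaling, and they were not counted after it.

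The phase change list joined the miR156, miR157 and miR172 entries to those of miR5200, which targets FT, and it divided between the directions. It held 9 miRNAs, of which 3 (33.3%) were higher and 4 (44.4%) lower as deposited, against 11.2% and 37.9% over all listed miRNAs. Both miR5200 entries were among the lower ones. After scaling 3 (33.3%) were higher and 3 (33.3%) were lower, against 21.8% and 25% over all listed miRNAs. miR172a-5p, an entry of the miR172 family, had 109.2 RPM in green-up crowns and 492.1 RPM in jointing crowns, against 29.3 RPM in three-leaf crowns and 23 RPM in dormant crowns. miR172e-3p, whose sequence matches the strand that targets AP2-like transcripts, had 16 and 60.5 RPM in spring, against 13.4 and 12.7 RPM before spring. The green-up value of miR172e-3p lay close to the pre-spring values, and most of its difference was at jointing. The log2 ratio was 3.52 for miR172a-5p and 1.55 for miR172e-3p, and without the jointing library that of miR172a-5p was 2.06.

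miR156a-5p, the entry of the family that targets SPL factors, was lower in spring as deposited. It had 226.5 RPM in green-up crowns and 74.2 RPM in jointing crowns, against 294 RPM in three-leaf crowns and 640 RPM in dormant crowns, a log2 ratio of -1.64. Its green-up and three-leaf values lay near each other, and after scaling the sides overlapped. The ratio was -0.97 without the dormancy library and -2.65 without the green-up library. The miR157 entries went both ways, miR157b-3p with 8 and 0 RPM in spring, against 49.2 and 37.1 RPM before it, and miR157d with 7 and 15.9 RPM in spring, against 0 in both pre-spring libraries. miR157b-3p and miR157d share no seed with miR156a-5p.

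Both entries of miR5200 were among the 10 lower miRNAs with the largest differences, counting those above 0 in all libraries and above 5 RPM in at least 1. miR5200a-3p had 16.4 RPM in green-up crowns and 79.6 RPM in jointing crowns, against 437.5 RPM in three-leaf crowns and 547.4 RPM in dormant crowns. miR5200-5p had 2.4 and 14.7 RPM in spring, against 157.3 and 127.7 RPM before spring. Green-up was the lowest library for both, and neither spring value came near a pre-spring value. The log2 ratio was -3.36 for miR5200a-3p and -4.06 for miR5200-5p, and -2.41 and -3.09 after scaling. The ratio of miR5200a-3p ran from -4.91 without jointing to -2.63 without green-up.

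**Figure D2:**
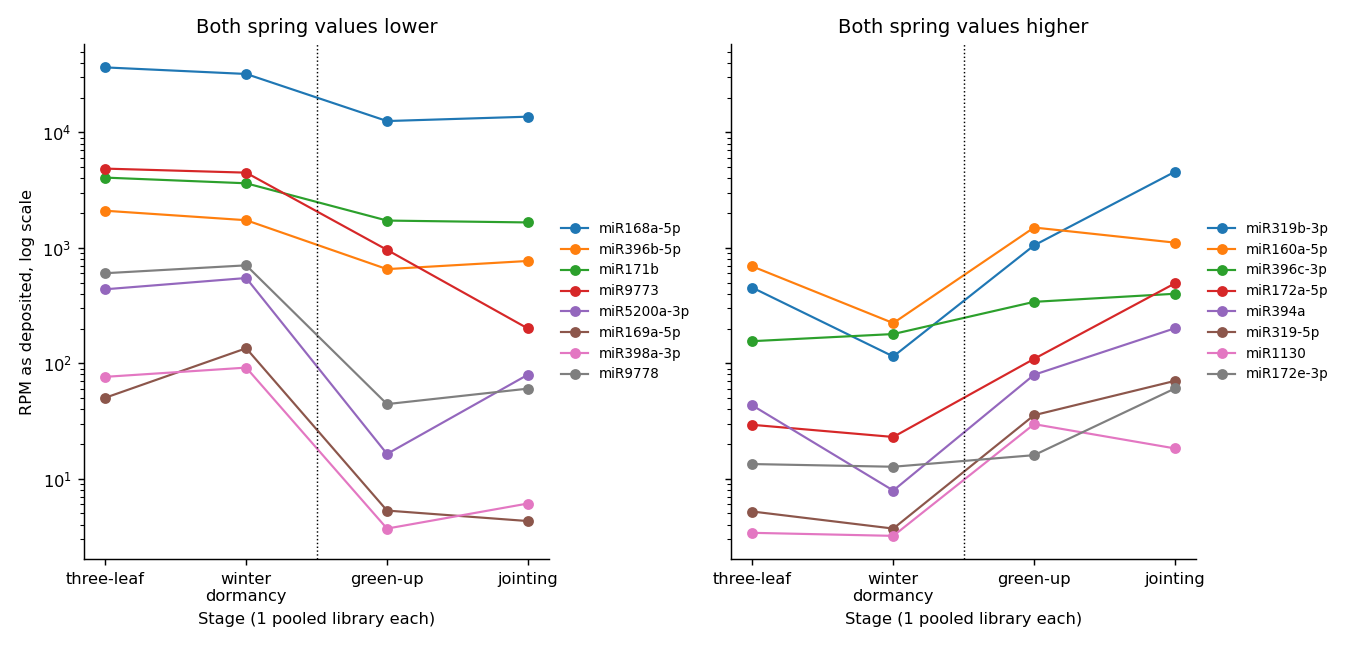
RPM as deposited (vertical axis, log scale) at the 4 stages in order of growth (horizontal axis) for 8 lower miRNAs (left) and 8 higher miRNAs (right), with 1 pooled library per point and a dotted line between the pre-spring and spring sides. miR5200a-3p is lowest at green-up, at 16.4 RPM, and miR319b-3p is highest at jointing, at 4558.3 RPM.

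The MYB and TCP list held the miR319 and miR159 entries. miR319 targets TCP factors of leaf and organ growth, and miR319b-3p was the most abundant higher miRNA. It had 1049.7 RPM in green-up crowns and 4558.3 RPM in jointing crowns, against 451.4 RPM in three-leaf crowns and 114.5 RPM in dormant crowns. miR319-5p had 35.5 and 70.4 RPM in spring, against 5.2 and 3.7 RPM before it. Dormancy was the lowest library and jointing the highest for both entries. Their log2 ratios were 3.31 and 3.57, and that of miR319b-3p ran from 1.89 without jointing to 4.61 without the three-leaf library.

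miR159a.1, which targets GAMYB factors, was the most abundant miRNA that was not separated. It had 45173 RPM in green-up crowns and 14340.2 RPM in jointing crowns, against 21980.1 RPM in three-leaf crowns and 21378.4 RPM in dormant crowns. Green-up was the highest library and jointing the lowest. After scaling both spring values were above both pre-spring values, so all 3 entries of the list were then higher, against 21.8% over all listed miRNAs. As deposited 2 of the 3 (66.7%) were higher, against 11.2%, and both were entries of the miR319 family.

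The auxin list held 8 miRNAs, 1 higher and 3 lower as deposited. These shares of 12.5% and 37.5% were close to the 11.2% and 37.9% over all listed miRNAs. miR160a-5p, which targets repressing auxin response factors, had 1499 RPM in green-up crowns and 1108.9 RPM in jointing crowns, against 689.9 RPM in three-leaf crowns and 222.8 RPM in dormant crowns. Its log2 ratio of 1.51 was 0.92 without the dormancy library and 2.55 without the three-leaf library. miR167a, which targets activating auxin response factors, went the other way, with 1053.3 and 286.1 RPM in spring, against 2248.6 and 2945.5 RPM before it. The entry miR167e-3p was lower with it, at 32.3 and 16.8 RPM in spring, against 62.7 and 54.4 RPM. Both miR167 entries stayed lower after scaling. miR393-5p, which targets the auxin receptors, had 352.5 RPM in green-up crowns and 149.2 RPM in jointing crowns, against 287.6 and 282.2 RPM before spring, and its sides overlapped. After scaling miR393-5p and miR390-3p were also higher. The list then held 3 higher (37.5%) and 2 lower (25%) miRNAs, against 21.8% and 25% over all listed miRNAs.

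miR168 guides cleavage of the transcript of AGO1, the main Argonaute protein that carries miRNAs, and it was the most abundant lower miRNA. miR168a-5p had 12526.9 RPM in green-up crowns and 13669.6 RPM in jointing crowns, against 36517.2 RPM in three-leaf crowns and 32038.5 RPM in dormant crowns. As deposited, the libraries within each side were close to each other, and the gap lay between dormancy and green-up. miR168-3p, the opposite arm, had 846.2 and 805.8 RPM in spring, against 2702.6 and 2601.1 RPM before it. The log2 ratios were -1.39 and -1.68 as deposited, and -0.60 and -0.92 after scaling, when both arms stayed lower. The scaled values of miR168a-5p were 13281 at green-up and 21641 at jointing, against 27875 in three-leaf crowns and 25083 in dormant crowns. The spring libraries were then no longer close to each other, and jointing lay nearer to dormancy than to green-up.

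All 5 entries of the list of miR170, miR171 and miR444 were lower in spring, as deposited and after scaling. Over all listed miRNAs 37.9% and 25% were lower. miR171 targets SCL factors of the GRAS family, and miR444 targets MADS-box factors in monocots. miR171a-3p had 2000.8 and 1155.6 RPM in spring, against 3606.1 and 3043.5 RPM before it. miR171b, which differs from it at 1 base, had 1721.8 and 1658.6 RPM in spring, against 4056 and 3621.1 RPM. Because of that single base, reads may have been divided between the entries, and their sum gave the same ordering. miR444b.1 had 492.8 and 407.1 RPM in spring, against 1211 and 1107.2 RPM. miR170-3p and miR171k-5p had at most 6.1 RPM in any library. miR170-3p also differs from miR171b at 1 base, so the 5 entries may not be separate measurements.

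The copper list held 7 miRNAs, 4 of them lower (57.1%) and none higher as deposited, against 37.9% and 11.2% over all listed miRNAs. miR398 targets copper/zinc superoxide dismutases, and both entries named here were among the 10 lower miRNAs with the largest differences by the count used for miR5200. miR398a-3p had 3.7 RPM in green-up crowns and 6.1 RPM in jointing crowns, against 76.3 RPM in three-leaf crowns and 91.7 RPM in dormant crowns. miR398f-5p had 8.4 and 7.7 RPM in spring, against 42.2 and 76.7 RPM. Both stayed lower after scaling, with log2 ratios of -3.26 and -2.13. miR397a, which targets laccases, had 7.5 and 15.7 RPM in spring, against 30.7 and 35.2 RPM, and its sides overlapped after scaling. miR528a-3p was listed at 0 in both spring libraries, against 1.2 and 3.9 RPM before spring.

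In the list of nutrient responses 3 of 4 miRNAs (75%) were lower, as deposited and after scaling, against 37.9% and 25% over all listed miRNAs. miR399b, which targets a ubiquitin-conjugating enzyme of phosphate homeostasis, had 33.7 and 40 RPM in spring, against 97.1 and 95.3 RPM before it. miR827, which also responds to phosphate, had 40.5 and 12.5 RPM in spring, against 89.9 and 56.8 RPM. miR395b, which targets transcripts of sulfate assimilation, had 9.7 and 2.6 RPM in spring, against 18.5 and 13.8 RPM. The remaining member, miR2111a-3p, was listed at 568.5 RPM at jointing and at 0 in the other libraries, so a single stage set its side mean.

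miR169 targets NF-YA factors, and 2 of its 4 entries (50%) were lower as deposited, against 37.9% over all listed miRNAs. miR169a-5p had the largest difference of any lower miRNA above 0 in all libraries, with 5.3 RPM in green-up crowns and 4.3 RPM in jointing crowns, against 50.3 RPM in three-leaf crowns and 134.9 RPM in dormant crowns. miR169g had 41.2 and 90.1 RPM in spring, against 229.1 and 295.9 RPM. The log2 ratios were -4.27 and -2.00 as deposited and -3.53 and -1.13 after scaling. miR169b-3p was listed at 32.6 RPM at jointing and at 0 elsewhere. miR2118, miR482, miR6118 and miR9863 target transcripts of NLR resistance proteins. Of the 7 members of their list, 2 (28.6%) were lower as deposited, against 37.9% over all listed miRNAs, and none after scaling. The lower members were miR9863a-3p, with 518 and 290.6 RPM in spring against 545.9 and 657.2 RPM, and miR9863a-5p, with 53.6 and 48.9 RPM in spring against 93.8 and 68.4 RPM. After scaling their log2 ratios turned to 0.12 and 0.10.

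The list of meristem and leaf polarity regulators held 8 miRNAs, 1 higher (12.5%) and 2 lower (25%), as deposited and after scaling. Over all listed miRNAs 11.2% were higher and 37.9% lower as deposited, and 21.8% and 25% after scaling. miR394a, which targets an F-box transcript of meristem maintenance in Arabidopsis, had 79.5 RPM in green-up crowns and 201 RPM in jointing crowns, against 43.1 RPM in three-leaf crowns and 7.9 RPM in dormant crowns. Its log2 ratio of 2.46 was 1.64 without jointing and 4.15 without the three-leaf library. miR164a, which targets NAC factors of organ boundaries, had 1420.9 and 622.7 RPM in spring, against 2673.4 and 2353.8 RPM. miR165a-3p was lower too, but in each library its listed value was that of miR164a plus that of miR164b-3p, so it is no separate measurement.

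**Figure D3:**
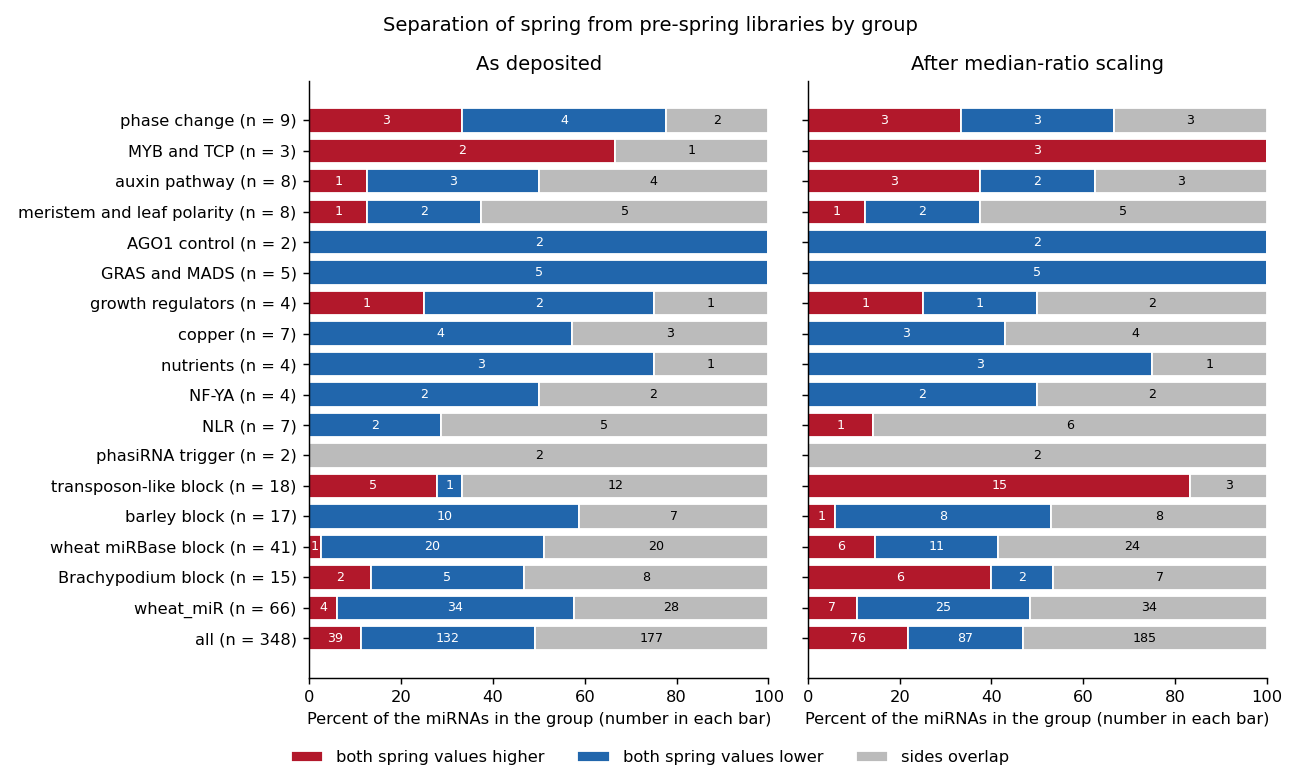
Percent of the miRNAs of each group (horizontal axis) with both spring values higher, with both lower or with overlapping sides, as deposited (left) and after median-ratio scaling (right), where the number in each bar counts miRNAs. The 5 entries of GRAS and MADS are lower in both panels, and the transposon-like block has 5 of 18 miRNAs higher as deposited and 15 of 18 after scaling.

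The arms of 1 miRNA precursor come from the same transcript and pair with each other in its hairpin. Among listed entries of a family, 27 pairs had at least 8 consecutive bases that pair with each other, and in 11 of these both entries were separated. In 8 pairs both were lower, in 2 both were higher, and in 1 they were opposite, as deposited. Of all separated miRNAs 22.8% were higher as deposited, so pairs with both lower would be frequent without any tie between arms. After scaling both entries were separated in 10 pairs, of which 1 was opposite. The opposite pair was miR396b-5p and miR396c-3p, whose printed sequences share a run of 15 pairing bases. miR396 targets growth-regulating factors. miR396b-5p had 653.8 RPM in green-up crowns and 769.2 RPM in jointing crowns, against 2094.3 RPM in three-leaf crowns and 1734.1 RPM in dormant crowns. miR396c-3p had 340.4 and 400 RPM in spring, against 155.4 and 179.1 RPM before it.

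The number of miR396b-5p reads per miR396c-3p read, which is free of the library scaling, was 1.92 in each spring library, against 13.5 in three-leaf crowns and 9.68 in dormant crowns. The same ratio for miR168a-5p over miR168-3p was 14.8 and 17.0 in spring, against 13.5 and 12.3 before it. The miR396 names carry different letters, and whether both entries belong to 1 precursor was not tested. For miR172a-5p over miR172e-3p the ratio was 6.83 and 8.13 in spring, against 2.19 and 1.81 before spring. For miR398f-5p over miR398a-3p it was 2.27 and 1.26 in spring, against 0.553 and 0.836.

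**Figure D4:**
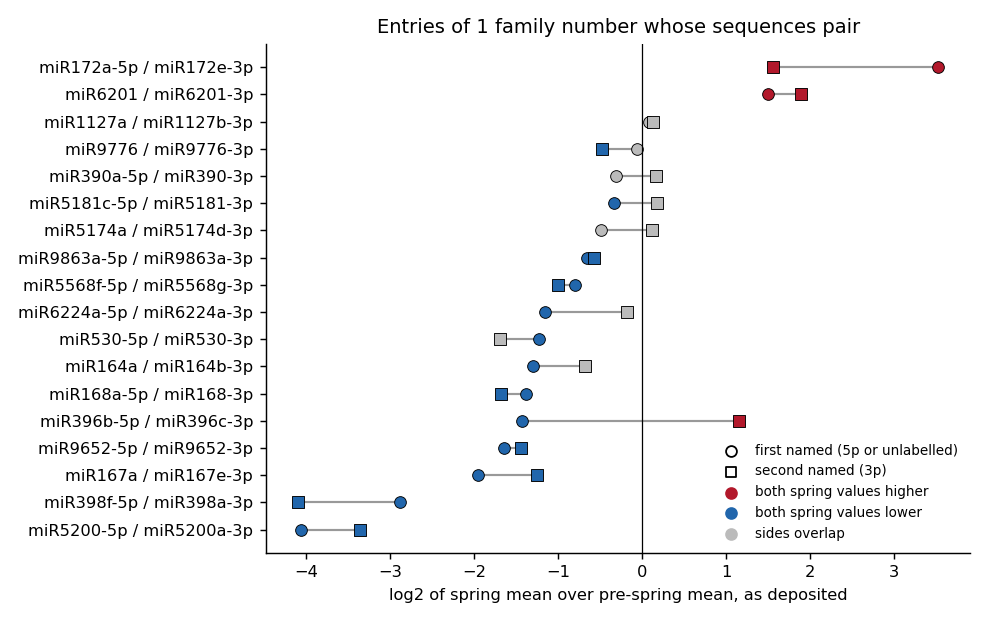
Log2 of spring mean over pre-spring mean as deposited (horizontal axis) for the 18 pairs of entries of a family (rows) with at least 8 consecutive pairing bases and values above 0 in all libraries, with a circle for the first named entry and a square for the second. The entries lie on the same side of 0 in most rows, and miR396b-5p at -1.43 lies far from miR396c-3p at 1.15.

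As deposited, families with several separated entries mostly kept 1 direction. Of 21 such families, all separated entries were lower in 13 and higher in 4, and 4 families held both directions. Only 22.8% of all separated miRNAs were higher as deposited, so agreement in the lower direction would be frequent among unrelated entries too. Some entries are arms or near-identical sequences, so they may not be separate measurements. After scaling 1 or more calls were lost in miR156, miR3630, miR5070, miR5568, miR9657 and miR9863. The 4 families with both directions were miR156 with miR157, miR396, miR5205 and miR6219. Among the 19 seeds shared by at least 2 of the listed miRNAs, none joined a lower to a higher miRNA, but for most seeds at most 1 member was separated. miR6201 and miR6201-3p were both higher, with 15.4 and 31.1 RPM for miR6201 in spring, against 7.8 and 8.7 RPM before it. miR9652-5p and miR9652-3p were both lower, with 1419.7 and 166.6 RPM for miR9652-5p in spring, against 2263.7 and 2688.1 RPM.

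Many of the higher miRNAs were of 24 nt. Plant miRNAs made by DCL1 are mostly of 21 nt and begin with U, whereas small RNAs of 24 nt are mostly siRNAs from repeats. Of the 77 miRNAs of 24 nt, 17 were higher and 10 lower as deposited, and 31 were higher and 5 lower after scaling. Of the 197 of 21 nt, 17 (8.63%) were higher and 92 (46.7%) lower as deposited, and 34 (17.3%) were higher and 63 (32.0%) lower after scaling. The median log2 ratio over all listed miRNAs of the length was 0.21 for 24 nt and -0.77 for 21 nt. In the 90 miRNAs of 23 to 24 nt the separated share was 21.1% higher and 16.7% lower, against 7.75% higher and 45.3% lower in the 258 of 20 to 22 nt. The 24-nt miRNA with the most reads, miR9773, was an exception, with 959.9 and 200.1 RPM in spring, against 4852.4 and 4477.2 RPM before it. Its log2 ratio of -3.01 ran from -4.54 without green-up to -2.28 without jointing.

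**Figure D5:**
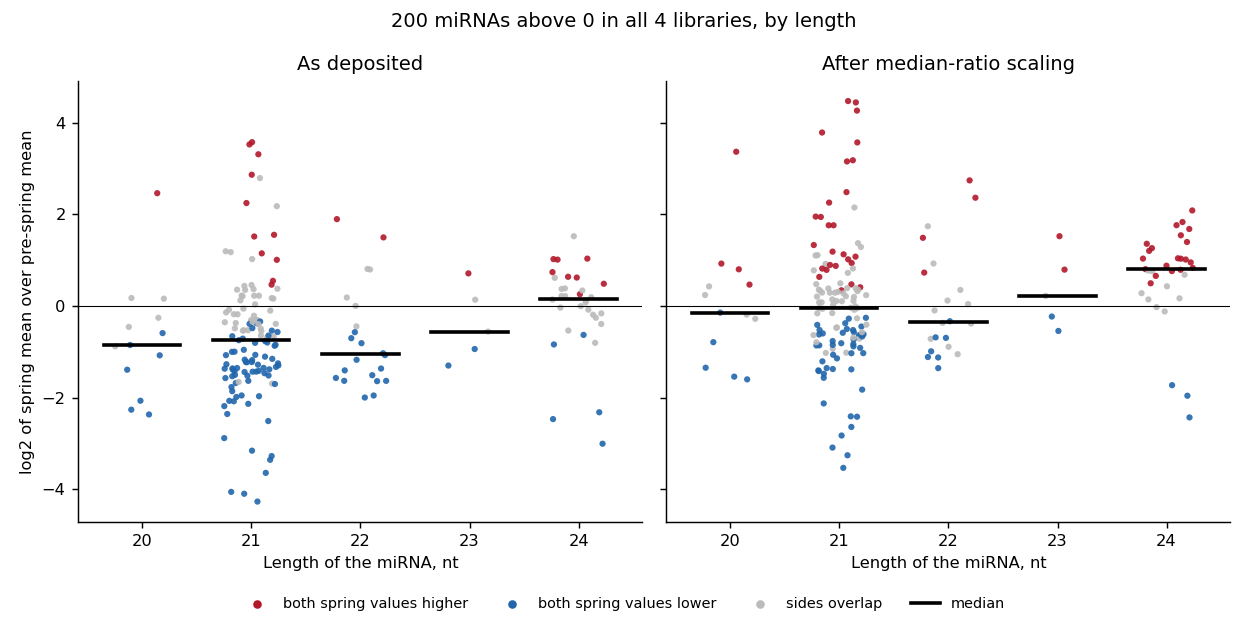
Log2 of spring mean over pre-spring mean (vertical axis) by length in nt (horizontal axis) for the 200 miRNAs above 0 in all libraries, as deposited (left) and after median-ratio scaling (right), with 1 point per miRNA and a bar at the median. The median of the 33 miRNAs of 24 nt is 0.14 as deposited and 0.80 after scaling, above that of the 127 miRNAs of 21 nt at -0.75 and -0.05.

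The directions also divided unevenly by first base. Over all listed miRNAs 11.2% were higher and 37.9% lower as deposited, and 21.8% and 25% after scaling. Among the 152 miRNAs that begin with U, 11 (7.24%) were higher and 72 (47.4%) lower as deposited. After scaling 26 (17.1%) of them were higher and 46 (30.3%) lower. Among the 50 that begin with G, 9 (18%) were higher and 10 (20%) lower as deposited, and 14 (28%) were higher and 7 (14%) lower after scaling. First base and length were tied, as 24 of those with G but 16 of those with U were of 24 nt. Within 24 nt, 4 of the 24 with G were higher and 3 lower, and 2 of the 16 with U were higher and 3 lower, as deposited. Within 21 to 22 nt, 4 of 19 with G were higher and 5 lower, and 8 of 126 with U were higher and 63 lower. The letters CUCCGU or ACGGAG, the strands of a single motif found in inverted-repeat elements of grasses, occurred in 20 of the listed sequences. Of these 20, 3 (15%) were higher and 2 (10%) lower as deposited, against 11.2% and 37.9% over all listed miRNAs. After scaling 11 (55%) were higher and 1 (5%) lower, against 21.8% and 25%. Most of them overlapped as deposited, so their direction rests on the scaling.

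The block miR1117 to miR1139, entries first described in wheat and related to inverted-repeat elements, held 18 miRNAs. As deposited 5 (27.8%) were higher and 1 (5.56%) lower, against 11.2% and 37.9% over all listed miRNAs. miR1117 had 351.9 and 319.4 RPM in spring, against 212.9 and 219.3 RPM before it. miR1125 had 336.7 and 261.4 RPM in spring, against 190.6 and 198.9 RPM. miR1130 had the widest gap of the block, with 29.7 and 18.3 RPM in spring, against 3.4 and 3.2 RPM. After scaling 15 of the 18 (83.3%) were higher and none lower, against 21.8% and 25% over all.

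Over all listed miRNAs 11.2% were higher and 37.9% lower as deposited, and 21.8% and 25% after scaling. The entries numbered in blocks first described in the grass Brachypodium held 15 miRNAs. As deposited 2 were higher (13.3%) and 5 lower (33.3%), near the shares over all, and after scaling 6 were higher (40%) and 2 lower (13.3%). In the barley block of miR5048 to miR5073, 10 of 17 miRNAs (58.8%) were lower and none higher as deposited. After scaling 8 (47.1%) were lower and 1 (5.88%) higher. miR5048-5p, the most abundant of them, had 3809 and 1873.7 RPM in spring, against 5891.1 and 8765.7 RPM before it. miR5062a had 1887.2 and 1673.6 RPM in spring, against 4095.8 and 4682.5 RPM. Of the 66 wheat_miR entries, 34 (51.5%) were lower and 4 (6.06%) higher as deposited, and 25 (37.9%) lower and 7 (10.6%) higher after scaling. wheat_miR1202, the most abundant of the lower ones, had 963.52 and 571.18 RPM in spring, against 1473.2 and 1508.27 RPM. Of 9 listed miRNAs whose sequence resembles a tRNA or rRNA fragment, 6 (66.7%) were lower and none higher as deposited, and 4 (44.4%) lower and none higher after scaling. Among the lower ones, miR6300 had 37.1 and 34.5 RPM in spring, against 123.3 and 157.4 RPM.

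Other abundant or far separated miRNAs stood outside the role lists. miR9778 had 44.3 and 60.3 RPM in spring, against 602.6 and 705 RPM before it, and miR9675-3p had 75.9 and 28.4 RPM in spring, against 441.1 and 569.6 RPM. miR9674b-5p had 2997.5 and 820.7 RPM in spring, against 5522.4 and 4811.3 RPM. These 3 stayed lower after scaling. miR7757-5p, with 2804.9 and 3139.8 RPM in spring against 7455.9 and 5976.9 RPM, and miR9662a-3p, with 3200.6 and 1834.8 RPM against 6522.1 and 4329.7 RPM, overlapped after scaling. Among the higher ones, miR9653a-3p had 27.3 and 98.3 RPM in spring, against 17.9 and 8.6 RPM. wheat_miR2079 had 6.99 and 3.85 RPM in spring, against 27.64 and 34.24 RPM, and wheat_miR259 had at most 5.86 RPM in any library.

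Some miRNAs were listed at 0 on a whole side. In spring 13 lower miRNAs were at 0 in both libraries, and before spring 6 higher ones were. miR6249a had 111.8 RPM in green-up crowns and 1303 RPM in jointing crowns, against 0 in both pre-spring libraries. miR5205a had 82.6 and 39.9 RPM in spring and 0 before it, and miR5169a had 11.6 and 6.7 RPM in spring and 0 before it. In the other direction miR3950 was at 0 in spring, against 181.1 and 203.1 RPM before it. miR7767-5p had 121.5 and 67.9 RPM, miR5205b had 83.4 and 96.7 RPM, wheat_miR1576 had 73.22 and 68.67 RPM and miR7697-5p had 22.8 and 26.7 RPM before spring, and all were at 0 in spring.

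Set against 3 reads in each library at 0, about 0.14 RPM, miR6249a was at least 4973-fold higher and miR3950 at least 1366-fold lower in spring. The smallest value above 0 in the libraries stood for 4 to 13 reads, so a listed 0 may stand for more than 3 reads or for a filtered value, and these folds are bounds only where it does not. Of the 19 separated miRNAs with a side at 0, 2 had a near-identical listed sequence (at most 2 mismatches, containment, or over 16 bases in a shared run), miR5205b and wheat_miR127. wheat_miR127 had 47.56 and 22.55 RPM in spring and 0 before it, while wheat_miR128, which differs at 1 base, was lower with 69.4 and 61.39 RPM in spring, against 113.4 and 91.51 RPM. After scaling the sides of wheat_miR128 overlapped, with a log2 ratio of 0.11. The sum of the entries was 116.96 and 83.94 RPM in spring, against 113.4 and 91.51 RPM, and was not separated.

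Other entries had identical or near-identical sequences, and how reads were assigned between them was not tested. miR6224a-5p was lower while miR6220-5p, of identical sequence, overlapped, and their sum was lower at 244.3 and 111 RPM in spring, against 261.4 and 316.2 RPM. miR1877 was higher while miR5050, also of identical sequence, overlapped, and their sum was higher at 21.5 and 15.2 RPM in spring, against 11.2 and 11.7 RPM. miR5387b was higher and miR5387a, which differs at 1 base, was listed only at the three-leaf stage. The sum of the miR5387 entries was higher at 288.3 and 143.5 RPM in spring, against 91.8 and 119.1 RPM.

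The rule turns on the nearest values of the sides. The ratio of these values lay beyond the exact 95% binomial interval for counting error in 109 of the 132 lower and 34 of the 39 higher miRNAs. Counting error is all that this interval covers, since each library pooled its replicates. The paper's methods describe no molecular identifiers that would tell molecules from PCR copies. The nearest values differed at least 2-fold in 58 lower and 13 higher miRNAs. Just inside the rule lay miR1137b-5p, with 132.3 RPM at green-up against 133.4 RPM at dormancy, and miR3636-3p, with 10 RPM at green-up against 9.3 RPM at dormancy. Just outside it lay miR9672b, with 493.5 RPM in green-up crowns and 4929 RPM in jointing crowns, against 496.7 RPM in three-leaf crowns and 287.9 RPM in dormant crowns, and it was higher after scaling. miR5049-3p, with 139.9 RPM at jointing against 140.6 RPM at dormancy, lay just outside it too.

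The 177 overlapping miRNAs held patterns that the grouping of stages cannot show. Green-up was the highest library for 63 of them, dormancy for 40, jointing for 37 and the three-leaf stage for 35, and 2 had a tie. Of the 177, 51 were above 0 in a single library. miR160a-3p, for example, was listed at 27.1 RPM at jointing only, while miR160a-5p from the same family was separated.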

How the data were processed

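The members and lists were chosen with earlier results of these data known. The deposited table gives 282 known miRNAs and 66 wheat_miR entries in RPM (headed TPM), which the authors computed as tags per 1000000 mapped reads without dividing by length, rounded to 1 decimal (known) or 2 decimals (wheat_miR). Per the paper's methods, the authors pooled the replicates of a stage into 1 library, sequenced it on a BGISEQ-500 instrument, used SOAP to discard reads from repeats and from structural RNAs such as rRNA and tRNA, and assigned known miRNAs by BLASTN against miRBase. Tool versions are not given in the sources used here. Because RPM is relative to all mapped reads, a change in other small RNAs shifts all miRNAs.

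Mapped reads were recovered from the steps of 2-decimal values under 30 RPM, of which 100% came out whole in each library within the rounding of 0.005 RPM plus 2%, against at most 52.4% to 56.1% at any other total tried. The sides were compared as log2 of the ratio of spring mean to pre-spring mean, with a side at 0 set to 3 reads per library. Median-ratio factors came from 200 miRNAs above 0 in all libraries. Named miRNAs were, in each direction, the 10 largest ratios above 5 RPM, the 6 most abundant, the 5 most abundant with a side at 0 and the 3 nearest the boundary on each side, plus members of role lists and the 6 most abundant that changed status under scaling. miR1125, miR5062a, miR5387a, miR5387b, miR6300, miR9652-5p, miR1877, miR5050, miR6220-5p, miR6224a-5p, wheat_miR128, wheat_miR1202, miR9652-3p, miR528a-3p and miR171k-5p were named after their values were seen. Intervals are exact binomial. The rule, scaling and intervals were tested on simulated data. Python 3.11.15, numpy 2.4.6, scipy 1.17.1 and matplotlib 3.10.9 were used. Positions in the genome were not analysed here.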

Additional observations from a re-analysis of the deposited data

How the results depend on the processing

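No paired analysis was possible because each stage is 1 pooled library and no replicate number pairs them. The balance of directions depended on scaling. The count of lower miRNAs was 132 as deposited and 87 with median-ratio factors. The count of higher miRNAs was 39 as deposited, 76 with median-ratio factors, 70 with factors from miRNAs above 5 RPM in all libraries and 75 with equal sums. The higher share of separated miRNAs was 22.8% as deposited and 46.6%, 40.5% and 45.5% under these scalings, and the median log2 ratio was -0.54 as deposited and 0.16, -0.035 and 0.10. Leaving out 1 library gave 148 to 185 lower and 48 to 102 higher miRNAs, a higher share of 22.3% to 40.8% and a median of -1.12 to -0.40. With a library left out the rule is easier to meet, so these counts cannot fall, and their rise is no check of the calls. Requiring values above 0 in all libraries left 23 higher miRNAs. Nearest values differing at least 1.5-fold left 87 lower and 24 higher, and at least 2-fold 58 and 13. Adding 1 RPM gave a median of -0.43. Without miRNAs of 23 to 24 nt, an alternative chosen after seeing the data, 20 were higher, 14.6% of those separated, and the median was -0.76.

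Of the 76 separated miRNAs named by the rule or after their values were seen, 5 changed sign. miR1137b-5p had 0.34, 0.15 and 0.29 under median-ratio factors, factors above 5 RPM and equal sums, and miR5181c-5p had 0.41, 0.20 and 0.36. miR9863a-3p had 0.12 with median-ratio factors and 0.062 with equal sums, miR9863a-5p had 0.10 and 0.058, and wheat_miR128 had 0.11 and 0.066. The others kept their sign under every alternative run. With 1 pooled library per stage, no difference here has a replicate check, and known miRNAs under 5 RPM are rounded to about 2 reads.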
